A study of Mus musculus with 8 samples.

Results

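Antimicrobial and whey acidic protein genes were followed in bulk RNA-seq of mouse prostate through WT tissue, prostatic intraepithelial neoplasia (PIN) and prostate adenocarcinoma (PCa). The 7 genes, Wfdc12, Wfdc15b, Wfdc2, Slpi, Lcn2, Ltf and Defa24, were taken by symbol from the 27036 genes of the count table, and they were chosen with their behavior in these tumors already known. Their levels and differences below are therefore descriptions with no p-value, and where calls from the fit over all genes are counted for them, they are no independent test. The 3 WT libraries came from sex- and age-matched prostates labelled WT-control, which the study's methods describe as R26 mTmG/+:Osr1 Cre/+, so that these animals carry the Cre and the membrane reporter as well. The 3 PIN and 2 PCa libraries came from mice with the same Cre and reporter, in which Cre under the Osr1 promoter also switches on a floxed transgene at Rosa26. All animals were of a mixed C57BL/6 and 129S1/SvImJ background. Each library is taken here to come from another animal, which the sample titles and the study's methods do not state. Lesions were checked under the microscope for a large majority of atypical or tumor cells, but each library still averages over every cell of its piece of tissue. The ages of the animals used for these libraries are not given in the sources used here, and the transgene was not analysed here.

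Whey acidic protein (WAP) genes encode small secreted proteins folded around the four-disulfide core, many of which block serine proteases or harm bacteria, and rodents and humans carry most of them in a cluster that also holds the seminal vesicle secretory genes. Lipocalin 2 and lactoferrin starve bacteria of iron, the first by binding their siderophores and the second by binding iron itself, and both are made by mucosal epithelium and stored in neutrophil granules. Alpha-defensins are short cationic peptides that open bacterial membranes and are known in the mouse chiefly from Paneth cells of the small intestine.

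The coding sequences of Wfdc12 and Wfdc15b are shown because these neighboring genes had their highest levels in different tumors. They are given from the start codon to the stop codon as in GENCODE M1 transcripts on NCBIM37 (mm9), and capitals mark the cysteine codons TGT and TGC in frame. Wfdc12 has 8 of them among 85 codons and Wfdc15b has 10 among 80.
Wfdc12: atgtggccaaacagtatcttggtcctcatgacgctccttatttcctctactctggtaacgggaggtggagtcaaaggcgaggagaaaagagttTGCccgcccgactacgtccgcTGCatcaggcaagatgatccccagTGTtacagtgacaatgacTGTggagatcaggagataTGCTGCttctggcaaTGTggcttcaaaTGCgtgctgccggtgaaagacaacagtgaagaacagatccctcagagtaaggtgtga
Wfdc15b: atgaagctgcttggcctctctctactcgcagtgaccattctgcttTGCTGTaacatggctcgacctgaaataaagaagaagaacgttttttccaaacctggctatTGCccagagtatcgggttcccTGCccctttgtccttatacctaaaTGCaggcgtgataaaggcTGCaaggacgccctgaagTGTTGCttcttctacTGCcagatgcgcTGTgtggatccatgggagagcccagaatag

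Defa24 is shown beside Defa17, one of 4 alpha-defensin genes that share 95.7% of its coding bases, because reads of such close copies could be assigned to the wrong gene. Capitals mark the 12 of 282 bases at which the 2 sequences differ.
Defa24: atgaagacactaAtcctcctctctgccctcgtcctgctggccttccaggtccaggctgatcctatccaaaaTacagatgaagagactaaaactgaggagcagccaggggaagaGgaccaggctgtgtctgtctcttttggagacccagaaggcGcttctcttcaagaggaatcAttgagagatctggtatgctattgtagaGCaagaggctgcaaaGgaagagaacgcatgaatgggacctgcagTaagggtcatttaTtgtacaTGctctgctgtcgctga
Defa17: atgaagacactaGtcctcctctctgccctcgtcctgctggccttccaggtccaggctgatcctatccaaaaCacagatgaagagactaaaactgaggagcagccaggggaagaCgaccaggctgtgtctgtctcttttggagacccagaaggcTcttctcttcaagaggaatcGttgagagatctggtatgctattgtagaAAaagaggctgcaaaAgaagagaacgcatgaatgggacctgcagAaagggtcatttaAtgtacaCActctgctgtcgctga
Of the 370 stretches of 50 bases in the Defa24 transcript, 15 occurred in any of 11 other alpha-defensin transcripts, so most of its length can be told from these copies by an exact match.

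Promoter windows, 250 bases before to 50 bases after the gene start, were found in the RefSeq table (GRCm38.p6) for 6 of the 7 genes, all but Defa24. The window of Wfdc12 (chr2:164190509-164190808, minus strand), high in both tumors, is shown beside those of Lcn2 (chr2:32387690-32387989, minus strand) and Ltf (chr9:111019042-111019341, plus strand), whose levels moved together. Capitals mark every match, on either strand, to the patterns searched, which were AP-1 (TGANTCA), the TATA box (TATAAA), C/EBP (TTGCNNAA) and the NF-kB consensus.
Wfdc12: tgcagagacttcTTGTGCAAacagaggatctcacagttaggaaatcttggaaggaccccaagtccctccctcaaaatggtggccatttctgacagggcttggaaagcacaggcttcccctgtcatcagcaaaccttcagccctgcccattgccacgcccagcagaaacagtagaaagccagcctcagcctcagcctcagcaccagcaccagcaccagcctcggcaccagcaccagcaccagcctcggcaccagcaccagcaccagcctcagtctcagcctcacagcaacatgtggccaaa
Lcn2: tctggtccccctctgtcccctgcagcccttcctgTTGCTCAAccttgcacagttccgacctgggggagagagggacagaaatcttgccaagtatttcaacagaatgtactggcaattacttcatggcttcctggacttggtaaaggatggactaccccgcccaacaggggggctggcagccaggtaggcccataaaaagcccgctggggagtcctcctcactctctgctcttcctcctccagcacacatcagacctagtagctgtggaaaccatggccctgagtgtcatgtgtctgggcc
Ltf: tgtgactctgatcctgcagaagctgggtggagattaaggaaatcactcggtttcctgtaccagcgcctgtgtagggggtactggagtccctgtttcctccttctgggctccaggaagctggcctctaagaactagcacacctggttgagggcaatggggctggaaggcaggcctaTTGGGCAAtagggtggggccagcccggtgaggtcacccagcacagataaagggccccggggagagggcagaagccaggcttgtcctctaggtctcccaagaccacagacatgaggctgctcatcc
The capitals in the 3 windows are C/EBP matches, and Slpi holds another, so 4 of the 6 windows matched where 10.8% of all 32851 windows did. A looser form of the same consensus, which was run first, matched 6 of 6 windows and also 45.4% of all windows, so the count depends on the letters chosen. No window of the 6 held the AP-1, TATA box or NF-kB letters, which 7.81%, 13.6% and 4.51% of all windows held. No TTGCNNAA match overlapped another, but matches to the looser form overlapped those in Slpi and Ltf. A match of letters is a description of the window and shows no binding.

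Total counts per library lay between 21751803 and 29730420, and 14034 genes were tested, those over 1 CPM in 2 or more libraries. CPM are counts scaled to a common TMM-adjusted library size, and all 7 genes passed this filter, Defa24 and Ltf through 2 libraries only. The PCa libraries were less alike than other pairs, with a Spearman correlation across genes of 0.854, against 0.929 or more within WT and 0.968 or more within PIN. WT 1 stood apart from the other WT libraries by its summed level of 9 seminal vesicle markers, 15947 CPM against 0.680 and 0.769, and those markers reached 4226 CPM in PCa 1, 1266 CPM in PCa 2 and 56.3 to 96.5 CPM in PIN. Luminal prostate markers were present in all libraries, but their sum was 51151 CPM or more in WT and PIN and 6466 and 4289 CPM in the PCa libraries. The sum of 12 stroma markers also moved with the tumors, at 2419 to 6387 CPM in WT and PIN and 822 and 351 CPM in PCa, and 5 of the 12 (Cnn1, Myh11, Des, Tagln and Acta2) were called lower in PCa against WT and against PIN, where 8.54% and 5.72% of all tested genes were called in either direction. The library numbers in the labels put WT 1, the other WT libraries, and all lesion libraries in separate series, and if those are batches they cannot be told apart from the condition. In bulk tissue, fewer cells of a type and less RNA per cell cannot be told apart.

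The tumors differed widely in these genes, and 5 of the 7 were above all WT and PIN libraries in 1 tumor, while Wfdc12 and Defa24 were in both. PCa 1 lay above every WT and PIN library for 6 of the 7 genes, all but Wfdc15b, and PCa 2 did so for Wfdc12, Wfdc15b and Defa24. Of all tested genes, 27.8% had PCa 1 and 27.9% had PCa 2 above every WT and PIN library, and 13.4% had both. The PCa libraries were more than 10-fold apart for 6 of the 7 genes, all but Defa24, and for 10.5% of all tested genes. Since the choice of genes used these libraries, nothing is read from that contrast of shares.

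**Figure D1:**
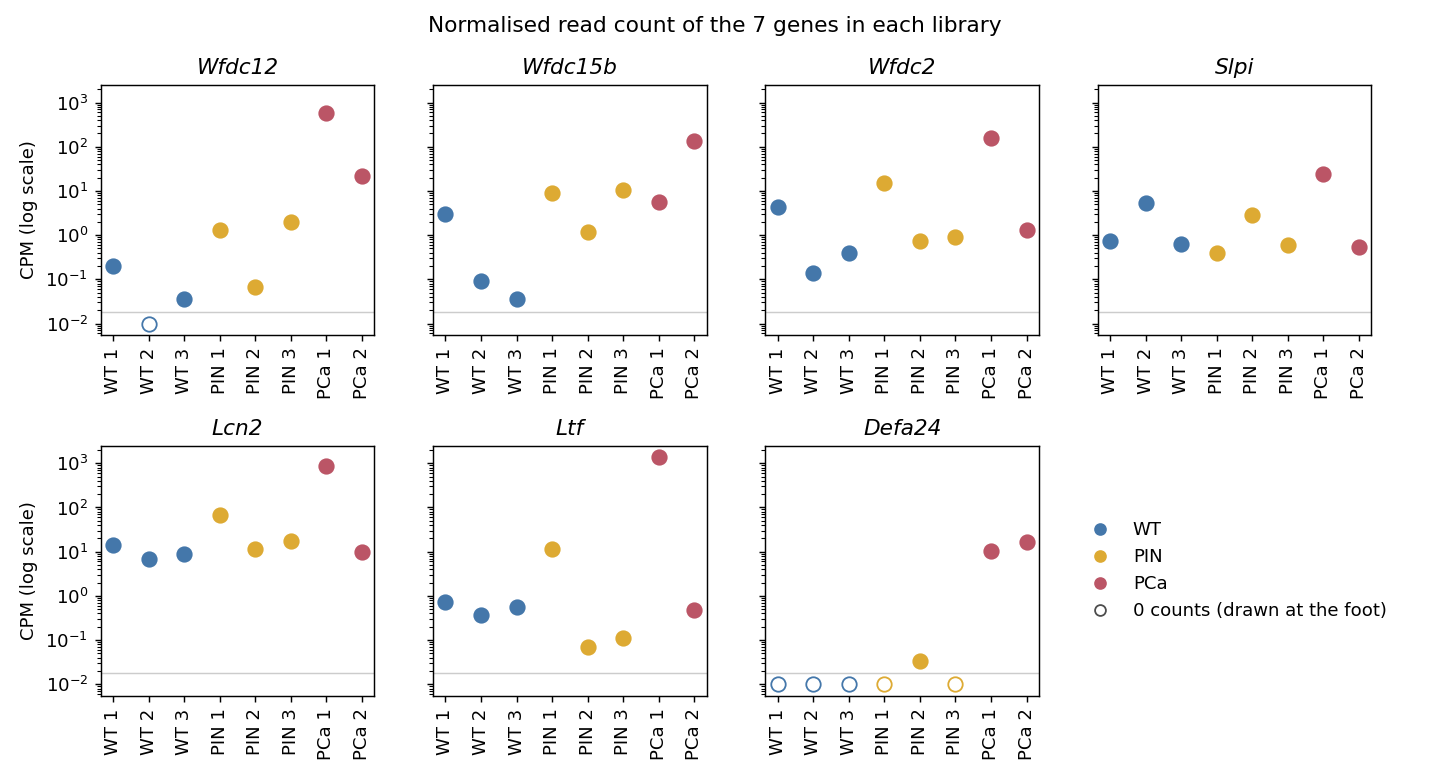
Normalised read count (CPM, log axis) of the 7 genes in each of the 8 libraries, with 1 point per library, colors for the groups and open points at the foot for 0 counts. Ltf and Lcn2 are highest in PCa 1, Wfdc15b stands high in PCa 2, and Defa24 is seen in both PCa libraries.

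Wfdc12, a WAP protein with antibacterial activity, had the highest fold of the genes with counts in WT (ENSMUSG00000042845, chr2:164014967-164016344, minus strand, 3 exons, mm9). It was at 0.198, 0 and 0.0366 CPM in WT 1, 2 and 3, at 1.33, 0.0689 and 2.03 CPM in PIN 1, 2 and 3, and at 574 and 21.3 CPM in PCa 1 and 2. Both tumors lay above all other libraries, while WT and PIN overlapped. The 0 counts of WT 2 allow up to 0.136 CPM, for counting error only. The log2 fold change was 11.91 (SE 1.99) for PCa over WT, 3.88 (SE 1.83) for PIN over WT and 8.02 (SE 1.61) for PCa over PIN. Without PCa 1, the tumor that held 27.0 times as much as the other, the log2 fold change was 8.09 against WT and 4.23 against PIN, and without WT 1 that against WT was 13.56. A730032A03Rik overlaps Wfdc12 on the other strand and reached 6.50 CPM in PCa 1. Whether reads were counted by strand is not given in the sources used here, so reads of this pair cannot be told apart.

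Wfdc15b, another small WAP protein of the cluster, had its high level in PCa 2 (ENSMUSG00000018211, chr2:164040190-164047396, minus strand, 4 exons). Its levels were 3.07, 0.0906 and 0.0366 CPM in WT 1, 2 and 3, 8.82, 1.17 and 10.7 CPM in PIN, and 5.53 and 131.5 CPM in PCa 1 and 2. PCa 2 stood 12.3 times above the highest PIN library, PCa 1 lay within the PIN range, and both tumors were above WT. The log2 fold change was 6.04 (SE 1.91) for PCa over WT, 2.72 (SE 1.64) for PIN over WT and 3.31 (SE 1.69) for PCa over PIN. Without PCa 2 the difference of PCa from WT was 2.41 and that from PIN turned to -0.29, and without WT 1 the differences of PCa and PIN from WT were 10.02 and 6.71. Only 23.8 kb separate this gene from Wfdc12, which was also above every WT and PIN library in PCa 2 but had its highest level in PCa 1.

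Wfdc2, also known as HE4, carries paired WAP domains and is a secreted marker of several carcinomas (ENSMUSG00000017723, chr2:164387913-164394010, plus strand, 5 exons). It was at 4.30, 0.136 and 0.403 CPM in WT, 15.2, 0.723 and 0.904 CPM in PIN, and 159.5 and 1.30 CPM in PCa. PCa 1 was 10.5 times above the highest other library, PIN 1, whereas PCa 2 lay within the WT range. The log2 fold change in PCa against WT was 5.66 (SE 2.21), and it was -0.29 without PCa 1. In PIN against WT it was 1.81 (SE 1.87), and -0.98 without PIN 1, so that its sign rested on that library. PCa and PIN differed by 3.84 (SE 2.04) on the log2 scale, and by -2.09 without PCa 1.

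Slpi, secretory leukocyte protease inhibitor, guards mucosal surfaces against neutrophil elastase (ENSMUSG00000017002, chr2:164179806-164214831, minus strand, 4 exons). Its levels were 0.742, 5.30 and 0.622 CPM in WT, 0.396, 2.93 and 0.603 CPM in PIN, and 24.2 and 0.549 CPM in PCa. WT and PIN overlapped, and PCa 1 was 4.56 times above the highest WT library. By CPM PCa 2 was below all WT libraries, but its 16 counts lay between the 15 of WT 1 and the 17 of WT 3. That order against WT 1 and WT 3 thus rests on the scaling. The log2 fold change was 2.48 (SE 1.54) for PCa over WT, -0.76 (SE 1.40) for PIN over WT and 3.23 (SE 1.57) for PCa over PIN. Without PCa 1, the first and the last became -1.99 and -1.24, and without WT 2 the difference of PIN from WT became 0.94.

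Lcn2 encodes lipocalin 2 (ENSMUSG00000026822, chr2:32240153-32243317, minus strand, 6 exons), and it was the only one of the 7 genes above 1 CPM in every library. It was at 14.2, 6.80 and 9.04 CPM in WT, 68.1, 11.6 and 17.4 CPM in PIN, and 883 and 9.67 CPM in PCa. PCa 1 was 91.3 times PCa 2, and PCa 2 fell inside the WT range. PCa and WT differed by a log2 fold change of 5.48 (SE 1.55), PIN and WT by 1.69 (SE 1.28), and PCa and PIN by 3.79 (SE 1.44). Without PCa 1, the differences of PCa from WT and PIN were -0.04 and -1.73, and without PIN 1 that of PIN from WT was 0.52.

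Ltf encodes lactoferrin (ENSMUSG00000032496, chr9:110921796-110945270, plus strand, 17 exons) and had the widest gap between the tumors. It was at 0.742, 0.363 and 0.549 CPM in WT, 11.3, 0.0689 and 0.113 CPM in PIN, and 1382 and 0.480 CPM in PCa. PCa 1 held 2879 times the level of PCa 2, which lay inside the WT range, and PIN 1 stood above WT while PIN 2 and PIN 3 stood below it. The log2 fold change was 10.29 (SE 3.12) for PCa over WT, 2.79 (SE 2.39) for PIN over WT and 7.49 (SE 2.75) for PCa over PIN. Without PCa 1 or without PIN 1 the gene no longer passed the filter, so these values rest on PCa 1 and PIN 1.

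Defa24, an alpha-defensin (ENSMUSG00000064213, chr8:22844966-22845943, plus strand, 2 exons), was the gene on which the tumors were most alike. It had 0 counts in all WT libraries, 0, 1 and 0 counts in PIN 1, 2 and 3, and 326 and 471 counts in PCa 1 and 2, or 10.5 and 16.1 CPM. Both tumors lay above all other libraries, and PCa 2 was 1.54 times PCa 1. Against the limit of 3 counts per library, PCa was at least 89.8-fold higher than WT. Against PIN, the pooled counts of 797 and 1 gave a ratio of 1103, with an exact interval at 95% confidence of 197 to 43617 that covers counting error only.

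**Figure D2:**
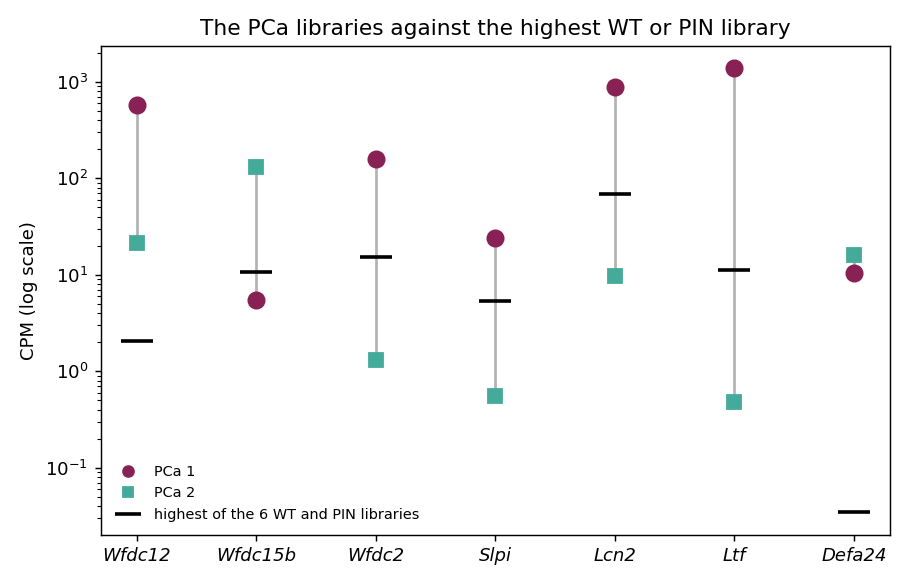
CPM (log axis) of the 7 genes in PCa 1 (circles) and PCa 2 (squares), joined by a line, with a black bar at the highest of the 6 WT and PIN libraries. Both points lie above the bar for Wfdc12 and Defa24, and for the 5 other genes only one does.

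A gene was called when it changed by more than 1 on the log2 scale, up or down, and its p-value from edgeR's quasi-likelihood test, adjusted by Benjamini-Hochberg over all 14034 genes, was under 0.05. Wfdc12 and Defa24 were the 2 of the 7 genes called in PCa against WT, where 8.54% of all tested genes were called, and the same 2 were called in PCa against PIN, where 5.72% were. In PIN against WT none of the 7 was called and 0.00% of all genes were, although 492 genes had an unadjusted p-value under 0.05 in that test and DESeq2 called 39. Defa24 entered the test only through the 2 PCa libraries in which it is high, so that its call was fixed by the choice and by the filter. Any other gene over 1 CPM only in the PCa libraries, also one of the lists below, likewise entered the test through the group in which it is high. These calls were not stable to single libraries. In PCa against WT only Defa24 was called without WT 3, Wfdc12 and Wfdc15b were called without PCa 1, and Wfdc12, Lcn2 and Ltf were called without PCa 2, while Defa24 no longer passed the filter without either PCa library. With only the 2 groups compared in the model, Wfdc12 lost its call in both comparisons with PCa, and DESeq2 added Lcn2 in both and Wfdc15b in PCa against WT. In PCa against PIN none of the 7 was called without PCa 1 or without any one of the PIN libraries, only Defa24 was without WT 1 or WT 3, and Wfdc12, Lcn2 and Ltf were without PCa 2. The PCa and WT ranges did not overlap for 3 of the 7 genes (Wfdc12, Wfdc15b and Defa24) and, with PCa above, for 17.7% of all genes. PCa lay above PIN without overlap for 2 of the 7 (Wfdc12 and Defa24) and for 21.1% of all genes. PIN lay above WT without overlap for 0 of the 7 and for 6.48% of all genes. The genes were chosen on these contrasts, and nothing is read from the counts. The comparisons share libraries, since PCa and WT each enter 2 of them.

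Per length of transcript, on the TPM scale, the order of the genes differed between the tumors. In PCa 1 the levels ran from Wfdc12 at 2826 TPM through Ltf at 1922, Lcn2 at 1463, Wfdc2 at 534, Defa24 at 95.5 and Slpi at 78.1 to Wfdc15b at 37.0 TPM. In PCa 2 Wfdc15b led at 913 TPM, followed by Defa24 at 153, Wfdc12 at 109 and Lcn2 at 16.7 TPM, with Wfdc2, Slpi and Ltf at 4.53, 1.84 and 0.694 TPM. Wfdc15b was thus last in one tumor and first in the other. In WT the highest mean was that of Lcn2, 13.4 TPM with a range of 7.37 to 19.6, which overlapped the ranges of Wfdc15b, Slpi and Wfdc2 below it.

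Across the 8 libraries, log2 levels of Lcn2 and Ltf had a Pearson correlation of 0.95, Wfdc2 and Lcn2 of 0.94, and Wfdc2 and Ltf of 0.91. Wfdc15b and Slpi had the lowest, -0.25. All genes share the same libraries and depths, and PCa 1 and PIN 1 are the high points of the first 3 pairs. The sum of 15 proximal and urethral epithelium markers was high in the same libraries, at 4428 CPM in PCa 1 and 2674 CPM in PIN 1 against 291 to 643 CPM in WT, 519 and 559 CPM in the other PIN libraries and 1481 CPM in PCa 2. Of the 14 that were tested, Krt7, Upk2 and Ly6a were called higher in PCa against WT, beside 8.54% of all tested genes called in either direction, and 10 of the 14 had a positive log2 fold change. The list was not uniform, since Upk2 was higher in PCa 2 (72.0 CPM) than in PCa 1 (8.40 CPM) and Upk1b was called lower in PCa against PIN. Clu alone made up 2670 CPM of the sum in PCa 1, 1611 CPM in PIN 1 and 844 CPM in PCa 2, so the sum mostly follows that gene. Krt7 was at 816 CPM in PCa 1 but at 25.2 CPM in PIN 1. The part of such epithelium in the levels of Lcn2, Ltf and Wfdc2 was not tested. Searched against 14033 tested genes, the closest patterns to Lcn2 were those of Saa1, an acute phase protein (r = 0.98), Acsl1 (0.98) and Gadd45b (0.98). For Ltf they were Brpf3, Mall and Gpx2, each at 0.97, and for Wfdc2 Trpm4 and Gm14446, each at 0.99, and Tmprss4 at 0.98. Wfdc12 was most like Rbp2 (0.99), E230001N04Rik (0.98) and Sult2b1 (0.98), Wfdc15b like Tle4 (0.97), Gpr82 (0.97) and Sap30 (0.95), and Slpi like H3f3b (0.97), Gm11428 (0.97) and Ccr1 (0.95). Defa24 was most like Acer1, Tcf20 and Cryba4, at 1.00, 1.00 and 0.99.

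The 4 WAP genes lie within 569 kb of chromosome 2 (chr2:164002063-164571431, mm9) that hold 37 genes of the table from Wfdc5 to Wfdc3, of which 20 were tested. Between Wfdc15b and Slpi lie the seminal vesicle genes Svs2 to Svs6, and Svs2 was the highest gene of the stretch in WT 1 (11211 CPM) and in PCa 1 (2026 CPM). PCa 1 was above every WT and PIN library for 11 of the 37 genes, PCa 2 for 11, and both for 7. Over the 20 tested genes these counts were 6, 4 and 3, beside 27.8%, 27.9% and 13.4% of all tested genes. Svs2 was at 0 in WT 2 and WT 3 and at 8.23 CPM in PCa 2, where Svs3b led the stretch at 379.9 CPM. Among the WT libraries, WT 1 was the highest for the seminal vesicle genes and for Wfdc12, Wfdc15b, Wfdc2, Lcn2 and Ltf. This rests on 1 library. Wfdc12 was at most 0.198 CPM in WT, and Ltf ran only from 0.363 to 0.742 CPM there. The summed seminal vesicle markers were higher in WT 1 (15947 CPM) than in PCa 1 (4226 CPM), whereas these 5 genes were lower in WT 1. The part of the seminal vesicle level in their values was not tested.

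**Figure D3:**
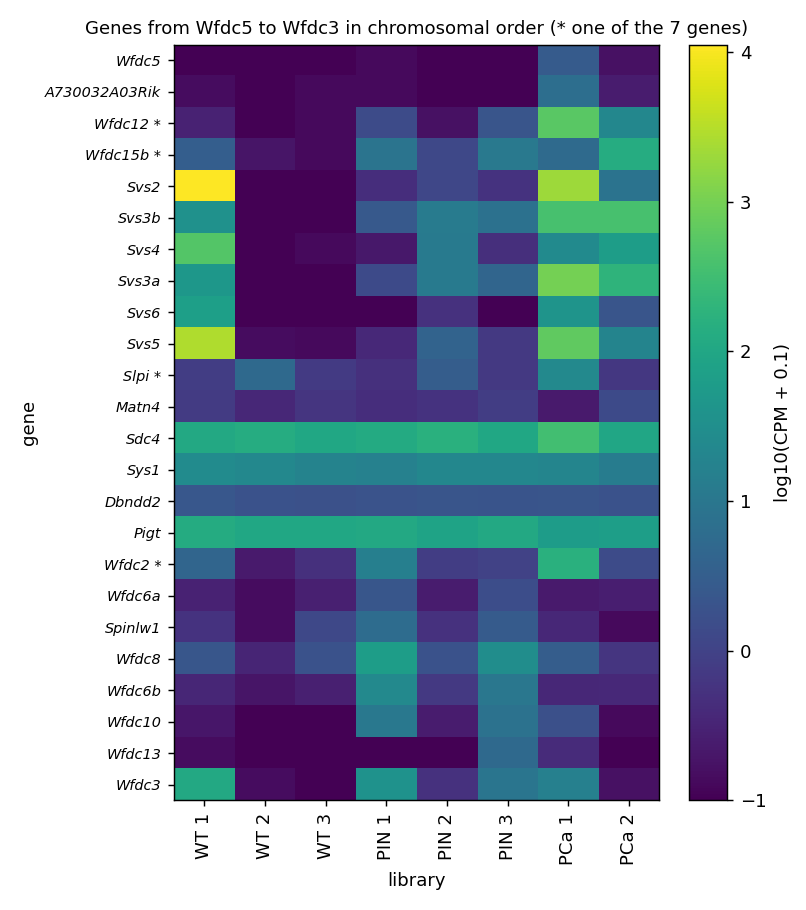
Level, as log10(CPM + 0.1), of the 24 genes above 1 CPM in a library between Wfdc5 and Wfdc3, from top to bottom in chromosomal order, in each of the 8 libraries. Wfdc12 is brightest in PCa 1 and Wfdc15b in PCa 2, Svs2 and Svs5 are brightest in WT 1 and PCa 1, Svs3a and Svs3b are bright in both tumors, and Wfdc8, Wfdc6b and Wfdc10 are bright in PIN 1 and PIN 3.

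Of 24 names listed for other WAP-domain genes and their Kunitz-domain neighbors, such as Spint3, 20 were in the table and 8 were tested. By edgeR's quasi-likelihood test none was called in any comparison. In PCa against WT, PIN against WT and PCa against PIN, 0, 4 and 5 of the 8 had an unadjusted p-value under 0.05. Of all 14034 tested genes, 3866, 492 and 3205 did. DESeq2 called none in PCa against WT, 3 in PIN against WT (Wfdc6b, Wfdc8 and Wfdc10) and 4 in PCa against PIN (Wfdc1, Wfdc6b, Wfdc8 and Spinlw1). Over all tested genes it called 2487, 39 and 1984. The filter asks for 2 libraries, so genes high in 1 tumor alone were not tested, and 5 of the 20 were above every WT and PIN library in PCa 1 (Expi, Wfdc5, Wfdc15a, Wfikkn1 and Spint3) and 5 in PCa 2, where Wfdc11 took the place of Expi. None of the 8 tested genes was among them, beside 27.8% for PCa 1 and 27.9% for PCa 2 of all tested genes. Some of those above had few reads, such as Wfdc15a with 1 count in each tumor. Wfdc5 was at 2.70 CPM in PCa 1, 0.0686 CPM in PCa 2 and at most 0.0360 CPM elsewhere. The median log2 fold change of the 8 was -0.34 for PCa over WT, 2.77 for PIN over WT and -2.95 for PCa over PIN, beside 0.01, -0.02 and 0.07 for all tested genes. Wfdc8 was at 2.13, 0.227 and 1.76 CPM in WT, 64.0, 1.76 and 30.1 CPM in PIN, and 2.99 and 0.514 CPM in PCa, so PIN 1 and PIN 3 were high and PIN 2 was at the WT level. Wfdc6b (23.4, 0.586 and 9.94 CPM in PIN 1, 2 and 3) and Wfdc10 (10.5, 0.138 and 8.06 CPM) had the same high libraries. The sum of 19 epididymis and vas deferens markers was also high there, at 28.9 CPM in PIN 1 and 43.8 CPM in PIN 3 against 7.54 CPM in PIN 2, 6.34 and 5.75 CPM in WT 2 and 3, and 25.0 CPM in WT 1. It was also 24.2 CPM in PCa 1, where Wfdc8, Wfdc6b and Wfdc10 were at 2.99, 0.257 and 1.64 CPM, and 7.20 CPM in PCa 2. Adam7, one of these markers, was at 9.54 and 33.7 CPM in PIN 1 and PIN 3 and 0.138 CPM in PIN 2. The list was not uniform, since Adam28 was at 18.2, 6.72 and 8.93 CPM in PIN 1, 2 and 3 and at 5.34 to 6.97 CPM in WT. Crisp1 was at 10.1 CPM in WT 1 and at most 0.108 CPM in any other library. The part of these markers in the levels of the WAP genes was not tested. The log2 fold changes in PIN against WT were 4.54 (SE 1.38), 5.99 (SE 1.27) and 7.50 (SE 2.16) for Wfdc8, Wfdc6b and Wfdc10, 3.08 (SE 1.06) for Wfdc6a and 2.45 (SE 1.25) for Spinlw1 (Eppin, a protease inhibitor of the sperm surface). They were 0.33 (SE 0.91) for Wfdc1, 0.17 (SE 0.82) for Wfikkn2 and -1.23 (SE 2.53) for Wfdc3.

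Among the other alpha-defensins, 11 genes were in the table and none passed the filter, because nearly all their reads lay in PCa 2. Together they had 5141 counts in PCa 2 and 1 in PCa 1. Defa20, Defa22, Defa21, Defa26 and Defa17 were at 102.9, 34.2, 19.7, 16.3 and 2.85 CPM in PCa 2, against at most 0.310 CPM in any other library. Defa24 was the alpha-defensin with more than 1 count in PCa 1. Mmp7, the protease that activates Paneth cell alpha-defensins in the mouse, was at 417 to 623 CPM in WT, 1238 to 3895 CPM in PIN and 403 and 836 CPM in PCa, and was not called by edgeR, while DESeq2 called it in both comparisons with PIN.

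**Figure D4:**
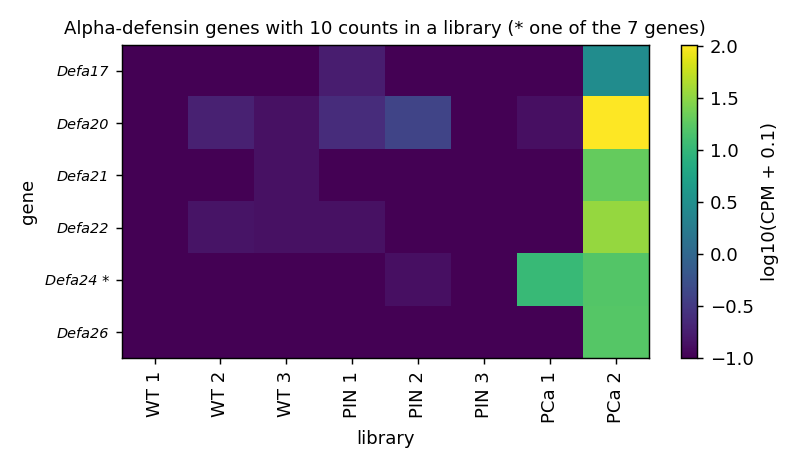
Level, as log10(CPM + 0.1), of the 6 alpha-defensin genes with at least 10 counts in a library, in each of the 8 libraries. Of the 6, Defa24 is bright in both PCa libraries and the others in PCa 2.

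Of 56 other mucosal defense genes, 26 were tested, and 3 rose and 1 fell in PCa against WT by edgeR's quasi-likelihood test, or 15.4% called beside 8.54% of all tested genes. Dmbt1, a mucosal scavenger receptor that binds bacteria, rose by 11.12 (SE 1.64, adjusted p = 0.0108) on the log2 scale, Duox1, an oxidase that makes hydrogen peroxide, by 3.08 (SE 0.76, adjusted p = 0.0476), and Defb1, a beta-defensin, by 2.07 (SE 0.50, adjusted p = 0.0434). Rnase4, a secreted ribonuclease, fell by 2.17 (SE 0.47, adjusted p = 0.0336). The median over the 26 was 1.91, beside 0.01 for all tested genes. PCa 1 was above every WT and PIN library for 31 of the 56 genes against 9 for PCa 2, most of the 56 being untested. Over the 26 tested genes these counts were 17 and 5, beside 27.8% and 27.9% of all tested genes.

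Among 18 tested targets and receptors of these proteins, 3 rose in PCa against WT by edgeR's quasi-likelihood test and none fell, or 16.7% beside 8.54% of all tested genes. Lrp2, megalin, which takes up lipocalin 2, rose by 8.22 (SE 1.12, adjusted p = 0.00955), Tfrc, the transferrin receptor, by 1.99 (SE 0.36, adjusted p = 0.0210), and Grn, progranulin, which Slpi protects from elastase, by 1.61 (SE 0.38, adjusted p = 0.0412). Unlike Lcn2, Lrp2 was higher in PCa 2 (354.9 CPM) than in PCa 1 (85.9 CPM). Of 23 tested upstream inflammatory genes, Il22ra1, a subunit of the interleukin 22 receptor, rose by 2.70 (SE 0.62, adjusted p = 0.0388) and Nfkbiz, a nuclear cofactor of NF-kB at the Lcn2 gene, by 2.49 (SE 0.55, adjusted p = 0.0344) in the same edgeR test. Ehf, an epithelial ETS factor, fell by 2.09 (SE 0.49, adjusted p = 0.0417), so that 3 of the 23 were called, beside the same 8.54%. Over the 5 lists together, 10 genes were called in PCa against WT, where 8.54% of all tested genes were, but 2 were without WT 3, 3 without WT 1 or any one PIN library, 5 without WT 2, 18 without PCa 1 and 19 without PCa 2. These lists were drawn up with results of these data known, and in PIN against WT edgeR called none of their genes while DESeq2 called 6.

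Because Lcn2 and Ltf are also neutrophil granule proteins, 20 neutrophil markers were summed. They reached 249 CPM in PCa 1, 19.5 CPM in PCa 2 and 16.8 to 45.9 CPM in WT and PIN, and 14 of the 20 were above every WT and PIN library in PCa 1 against 2 in PCa 2, beside 27.8% and 27.9% of all tested genes. Only 4 of the 20 were tested, 3 of them above all those libraries in PCa 1 and 1 in PCa 2. S100a9 was at 52.5 CPM and S100a8 at 36.5 CPM in PCa 1. S100a8 was called higher in PCa against WT and against PIN, beside 8.54% and 5.72% of all tested genes called in either direction. Csf3r had 606 counts and Cxcr2 had 209 in PCa 1, against at most 41 and 7 in any WT or PIN library. Of the other defining neutrophil genes, Camp was at 0 in all libraries, Elane had 0 counts in PCa 1, Ngp had 1, Ly6g had 2 and Mpo had 18. Summed over 10 macrophage markers, PCa 1 had 372 CPM, PCa 2 had 40.4 CPM and the other libraries had 81.5 to 239 CPM. The part of these cells in the levels of Lcn2, Ltf, Slpi and Wfdc2 in PCa 1 was not tested.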

How the data were processed

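Paired-end libraries of ribosomal RNA-depleted RNA from 8 prostate tissues were used. The authors trimmed reads with cutadapt 1.9.1, aligned them to mm9 with HISAT2 2.1.0 and counted them per gene with HTSeq 0.6.1, per the labels, and the deposited values are raw counts. The counting's strand setting and the annotation release are not given in the sources used here. The gene length column deposited by the authors, another kind of value, was used for TPM.

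Differences were fitted with edgeR 4.0.16 in R 4.3.3 (TMM, quasi-likelihood F-test, 1 model of 3 groups with 5 residual degrees of freedom, Benjamini-Hochberg adjustment) and tested on simulated data. Sequences were read with Python and aligned with Biopython. The genes named are the 7 genes, the tested WAP-domain genes, at most 3 called genes per direction of each list, the 3 closest patterns of each gene and leading markers. Camp, Elane, Ngp, Ly6g, Mpo, Csf3r, Cxcr2, Adam7, Wfdc5, the single alpha-defensins, Mmp7 and the Svs genes were picked out after their values were seen. So were Adam28, Crisp1 and Clu. The 7 genes and all lists were chosen with earlier results of these data known. Of the motifs planned, 1 is not reported here. The letters of the C/EBP pattern were planned as TTGCNNAA, but the design recorded only its name. A looser form was run before it, and both counts are given. As alternatives, the filter was dropped, scaling was by upper quartiles, DESeq2 1.42.0 was used, the replicate number was added as a block, each pair of groups was fitted alone, and each library was left out in turn. Where nothing but the animal separates libraries, p-values measure the spread between these animals.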

Additional observations from a re-analysis of the deposited data

How the results depend on the processing

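With 2 tumors that differ, the spread between them limits every comparison with PCa, and genes near 0 counts are limited by depth. Upper-quartile normalization kept every log2 fold change of the 7 genes in its direction and the same 2 genes called (Wfdc12 and Defa24), and so did analysis without a filter on low counts. The 42 levels recomputed with plain totals or upper-quartile scaling stayed within 1 SD of the reported means. Plain totals shift the median of all genes by 0.54 for PCa over WT, 0.20 for PIN over WT and 0.34 for PCa over PIN on the log2 scale.

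In PCa against WT, 1198 genes were called in all, 2 of the 7 genes and 10 genes of the 5 defense lists. DESeq2 called 2487, 4 and 25 and the model of only the 2 groups compared called 123, 1 and 2. Leaving out 1 library gave 347 to 2477 genes, 1 to 3 of the 7 and 2 to 19 of the lists. In PCa against PIN, where 803, 2 and 7 were called, DESeq2 called 1984 in all and 23 of the lists, the model of only the 2 groups compared called 359, 1 and 1, and leaving out 1 library gave 78 to 2251, 0 to 3 and 0 to 18. None of the 7 was called in PCa against PIN without PCa 1, PIN 1, PIN 2 or PIN 3, and 1 was without WT 1 or WT 3, while in PCa against WT only Defa24 was called without WT 3. In PIN against WT, where none was called, DESeq2 called 39 in all and 6 of the lists, and leaving out 1 library gave 0 to 0 in all, of the 7 and of the lists. The share of higher calls in PCa against PIN, 44.6% of all calls, was 18.5% with a replicate block and 8.97% without PIN 3. The cause was not tested.

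The labels do not say that the replicate numbers pair the animals. The correlation of deviations ranged from -0.0562 to 0.284 (mean 0.0992) between same-numbered libraries and from -0.284 to 0.164 (mean -0.0505) between others. With 2 PCa libraries their deviations mirror each other, so these values cannot exclude pairing. With the number as a block, 413 genes, 3 of the 7 (Wfdc12, Defa24 and Wfdc2) and 6 of the lists were called in PCa against WT, and 151 genes, 1 of the 7 (Wfdc12, but not Defa24) and 1 of the lists in PCa against PIN. The log2 fold change of Ltf with the block was 5.52 in PCa against WT and -0.75 in PIN against WT.

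Signs also turned without single libraries. Without PCa 1, the log2 fold changes against WT were -0.29 for Wfdc2, -1.99 for Slpi and -0.04 for Lcn2, and against PIN they were -2.09, -1.24 and -1.73. Without PCa 2, that of Wfdc15b against PIN was -0.29. In PIN against WT, Slpi had 0.94 without WT 2 and Wfdc2 had -0.98 without PIN 1. Over all libraries left out in turn, PCa differed from WT by -0.29 to 8.17 for Wfdc2, -1.99 to 4.17 for Slpi and -0.0415 to 6.48 for Lcn2, and from PIN by -2.09 to 6.64 for Wfdc2, -0.29 to 4.27 for Wfdc15b, -1.24 to 4.62 for Slpi and -1.73 to 4.96 for Lcn2. PIN differed from WT by -0.98 to 4.32 for Wfdc2 and by -2.14 to 0.94 for Slpi.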

Other observations

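Beta-defensin genes, secreted epithelial peptides that also coat sperm in the epididymis, were examined by symbol after their values were seen and are given without a test. Of 42 in the table, 6 were tested and 14 had no count in any library. PCa 1 was above every WT and PIN library for 19 of them, PCa 2 for 10 and both for 5, beside 27.8%, 27.9% and 13.4% of all tested genes. Those shares cover tested genes only, and most of the 42 were not tested. Defb9 was at 0 in WT, at 0.180, 0 and 0.264 CPM in PIN 1, 2 and 3, and at 8.82 and 6.45 CPM in PCa 1 and 2, so both tumors were above all other libraries, as with Defa24. Defb29 and Defb11 were at 10.4 and 14.9 CPM in PCa 1 and at 0 and 0.206 CPM in PCa 2. Defb10 was higher in PCa 2 (17.2 CPM) than in PCa 1 (3.80 CPM), the same order as Wfdc15b. Defb50 was at 90.6 to 293 CPM in WT and reached 2879 CPM in PIN 1 and 2664 CPM in PCa 1, with 484 CPM in PCa 2.

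Expi, a WAP gene outside the chromosome 2 stretch, was at 21.7 CPM in PCa 1, 0.137 CPM in PCa 2 and at most 0.792 CPM elsewhere, in PIN 1, and was also picked out after its values were seen.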
